A study of Mus musculus with 2 samples.

Results

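The miRNA genes Mir137, Mir9-1, Mir9-2, Mir9-3, Mir218-1, Mir218-2 and Mir153, all best known from neurons, were examined in whole adrenal glands of mice. They are 7 of the 2202 miRNA genes in the deposited tables and were chosen by name, as miRNAs that the chromaffin cells of the adrenal medulla or the nerves that supply them could contribute. The samples were adrenal glands of B6CASTF1/J female mice aged 36 days with no treatment in the labels, an F1 hybrid of a laboratory and a wild-derived strain, and they made up 1 group of 2 microRNA-seq libraries with an RNA size range under 30 in the labels. The labels number these libraries as biological replicates from 2 differently numbered females under 1 shared donor identifier, so an SD given here may be a spread between animals or a technical one. There was no second tissue, sex, age or treatment, and the gland was not divided into cortex and medulla, so the cells that gave the reads were not measured.

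MicroRNAs are cut from a hairpin as short duplexes, and the loaded strand pairs with messages mainly through its seed, bases 2 to 8. Chromaffin cells arise from the neural crest, store catecholamines in dense-core vesicles and are driven by preganglionic sympathetic nerve endings. In the brain miR-9 acts in neural progenitors and early neurons, miR-137 restrains progenitor growth and shapes dendrites and synapses, miR-218 is enriched in motor neurons, and miR-153 targets messages for vesicle release proteins.

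The arms that carry these functions are shown with the seed in capitals, because the seeds fall into 4 groups and because copies of an arm bear on which reads could be counted. They are RefSeq mature sequences of build GRCm38.p6, 5′ to 3′.
miR-137-3p: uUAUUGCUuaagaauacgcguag
miR-153-3p: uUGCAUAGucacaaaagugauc
miR-218-5p: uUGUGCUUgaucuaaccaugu
miR-9-5p: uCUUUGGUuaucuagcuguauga
Mir9-1, Mir9-2 and Mir9-3 make the same miR-9-5p, and Mir218-1 and Mir218-2 make the same miR-218-5p. No seed was shared between the 4 groups. Outside them, the miR-218-5p seed also occurs in miR-7002-3p, and no other mouse miRNA in the RefSeq table has the seed of miR-137-3p, miR-153-3p or miR-9-5p.

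The hairpins of the miR-9 and miR-218 genes are printed with both mature arms in capitals, since they show what a read must cover to be placed at 1 locus. All 7 hairpins in GENCODE M21 were identical in position and sequence to those of RefSeq.
Mir9-1: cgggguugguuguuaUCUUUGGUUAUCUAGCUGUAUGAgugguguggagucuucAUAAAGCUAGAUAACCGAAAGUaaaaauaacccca
Mir9-2: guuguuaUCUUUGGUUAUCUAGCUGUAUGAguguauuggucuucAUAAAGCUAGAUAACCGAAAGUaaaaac
Mir9-3: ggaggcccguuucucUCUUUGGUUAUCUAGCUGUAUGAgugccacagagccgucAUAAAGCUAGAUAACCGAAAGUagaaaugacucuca
Mir218-1: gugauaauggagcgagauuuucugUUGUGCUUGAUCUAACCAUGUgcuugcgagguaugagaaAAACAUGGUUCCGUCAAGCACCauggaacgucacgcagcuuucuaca
Mir218-2: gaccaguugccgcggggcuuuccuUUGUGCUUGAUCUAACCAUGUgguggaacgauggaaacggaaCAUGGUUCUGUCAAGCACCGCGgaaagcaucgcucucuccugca
Both arms of miR-9 occur in 3 hairpins. Around miR-9-5p the identical stretch ran on for up to 3 bases past the 3′ end at each locus, and for 7 bases before the 5′ end between Mir9-1 and Mir9-2, which is as far as the Mir9-2 hairpin reaches. The longest identical stretch was 33 bases between Mir9-1 and Mir9-2 and 26 bases between either of them and Mir9-3. The 2 miR-218 hairpins shared 22 bases, which are miR-218-5p and 1 base after it, while their 3p arms were found at 1 locus each. Mir137 and Mir153 had no stretch of 12 bases or more in common with any other annotated miRNA hairpin. A read that maps to more than 1 place is counted for no gene in these tables. Among annotated hairpins a read of a whole arm of Mir137 or Mir153 fits 1 locus, but copies elsewhere in the genome were not searched. The levels of the other 5 genes rest only on reads that tell the copies apart.

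**Figure D1:**
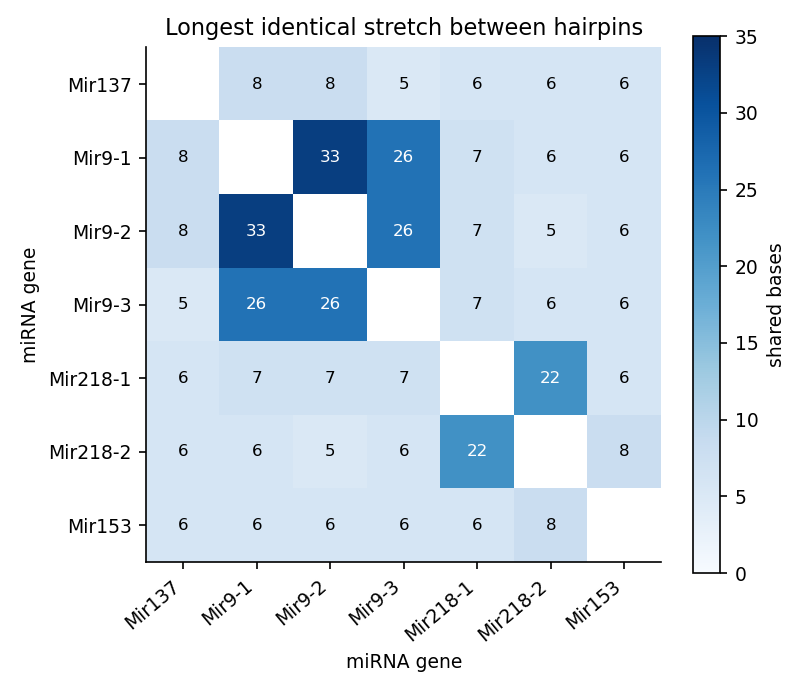
Longest stretch of identical bases between the hairpins of each pair of the 7 genes, in bases, as numbers and colour. The 3 miR-9 genes share 26 to 33 bases and the miR-218 pair shares 22, while Mir137 and Mir153 share at most 8 with any other member.

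All 7 genes lay inside a longer gene on the same strand (mm10 assembly, GENCODE M21 annotation). Mir137 (ENSMUSG00000065569.2, chr3:118433857-118433929, plus strand) lay in an exon in 3 of the 6 transcripts of the noncoding gene Gm26871. Mir9-1 (ENSMUSG00000106493.1, chr3:88215598-88215686, plus strand) lay in an intron in 5 of the 11 transcripts of the noncoding gene Gm3764. Mir9-2 (ENSMUSG00000065424.2, chr13:83738814-83738885, plus strand) lay in an exon in 2 and in an intron in 1 of the 5 transcripts of the noncoding gene C130071C03Rik. Mir9-3 (ENSMUSG00000093238.1, chr7:79505264-79505353, plus strand) lay in an intron in 4 of the 7 transcripts of Mir9-3hg.

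The other 3 genes were intronic in protein-coding genes. Mir218-1 (ENSMUSG00000065603.1, chr5:48223942-48224051, plus strand) lay in Slit2 and Mir218-2 (ENSMUSG00000065583.1, chr11:35616816-35616925, plus strand) in Slit3, which encode secreted axon guidance proteins. Mir153 (ENSMUSG00000065538.1, chr12:117250817-117250885, plus strand) lay in Ptprn2, which encodes phogrin, a membrane protein of dense-core vesicles, and also opposite an intron of the noncoding gene Gm5441.

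Sense counts of miRNA genes summed to 5397603 in replicate 1 and 3029977 in replicate 2, a depth ratio of 1.78. Reads mapped to several places numbered 3984008, or 28.5% of all reads, in replicate 1 and 2302439, or 30.6%, in replicate 2. How many of them were miR-9 or miR-218 is not known. Levels are CPM, sense counts scaled to 1000000 per library over all miRNA genes, without division by length because a miRNA read covers a whole mature arm (21 to 23 bases for these genes). A count of 0 allowed up to 3 counts, which is 0.556 CPM at the depth of replicate 1 and 0.990 CPM at that of replicate 2. These limits, and the 95% Wilson intervals given for levels, cover counting error only.

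The 7 genes together held 0.0479% of the sense miRNA counts in replicate 1 (0.0461 to 0.0498%) and 0.0575% in replicate 2 (0.0548 to 0.0602%), or 0.0527% ± 0.00673 (SD, n = 2). Mir137 supplied 90.8% of that in replicate 1 and 87.5% in replicate 2. Of the 7 genes, 4 reached 10 counts in both libraries, as did 339 of all 2202 genes, and the 3 that did not were the miR-9 genes.

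Mir137 was the leading member. It had 2349 counts in replicate 1 and 1523 in replicate 2. Its level was 435 CPM in replicate 1 (418 to 453) and 503 CPM in replicate 2 (478 to 529). The intervals did not overlap, and the mean was 469 ± 47.7 CPM (SD, n = 2). Mir137 stood at rank 107 of all genes by mean level. By level in both libraries the genes closest to it were Mir206 at 484 ± 14.5 CPM, known from skeletal muscle, and Mir193a at 448 ± 59.3 CPM.

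Mir153 was 24.4-fold lower than Mir137 in geometric mean. It had 62 counts in replicate 1 and 97 in replicate 2, although replicate 2 was the shallower library. Its level was 11.5 CPM in replicate 1 (8.96 to 14.7) and 32.0 CPM in replicate 2 (26.2 to 39.0), or 21.8 ± 14.5 CPM (SD, n = 2). These intervals lay far apart. The closest genes by level were Mir499 at 19.0 ± 14.2 CPM, a miRNA of a cardiac and slow-muscle myosin gene, and Mir103-2 at 20.1 ± 6.13 CPM.

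The miR-218 genes were unequal. Mir218-2, in Slit3, had 130 counts in replicate 1 and 109 in replicate 2, and its level was 24.1 CPM in replicate 1 (20.3 to 28.6) and 36.0 CPM in replicate 2 (29.8 to 43.4), with a mean of 30.0 ± 8.41 CPM (SD, n = 2). Mir218-1, in Slit2, had 47 counts in replicate 1 and 11 in replicate 2, and its level was 8.71 CPM in replicate 1 (6.55 to 11.6) and 3.63 CPM in replicate 2 (2.03 to 6.50), with a mean of 6.17 ± 3.59 CPM (SD, n = 2). Mir218-2 was the higher locus in both libraries.

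Of the reads counted at either miR-218 locus, Mir218-2 took 73.4% in replicate 1 (66.5 to 79.4%) and 90.8% in replicate 2 (84.3 to 94.8%). This split needs no scaling between libraries, and its intervals did not overlap. Summed, the loci had 32.8 CPM in replicate 1 and 39.6 CPM in replicate 2. Whether these reads came from the 3p arms or from longer forms of miR-218-5p cannot be read from counts per hairpin, and neither sum nor split measures miR-218-5p itself. The genes closest to Mir218-2 by level were Mir410 of the imprinted Dlk1-Dio3 locus at 28.0 ± 5.74 CPM and Mir669l at 26.5 ± 10.2 CPM.

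The miR-9 genes were all but uncounted. Mir9-2 and Mir9-3 had 0 counts in both libraries, and Mir9-1 had 0 counts in replicate 1 and 1 in replicate 2. That single read was lost when strand was ignored, since Gm25641, which RefSeq gives as a miR-9b hairpin, overlaps Mir9-1 on the other strand. Gm25641 itself had 0 sense counts in both libraries. The limits of 0.556 and 0.990 CPM hold for reads that fit 1 locus, and with both arms present at 3 loci they set no limit on miR-9 in the gland.

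**Figure D2:**
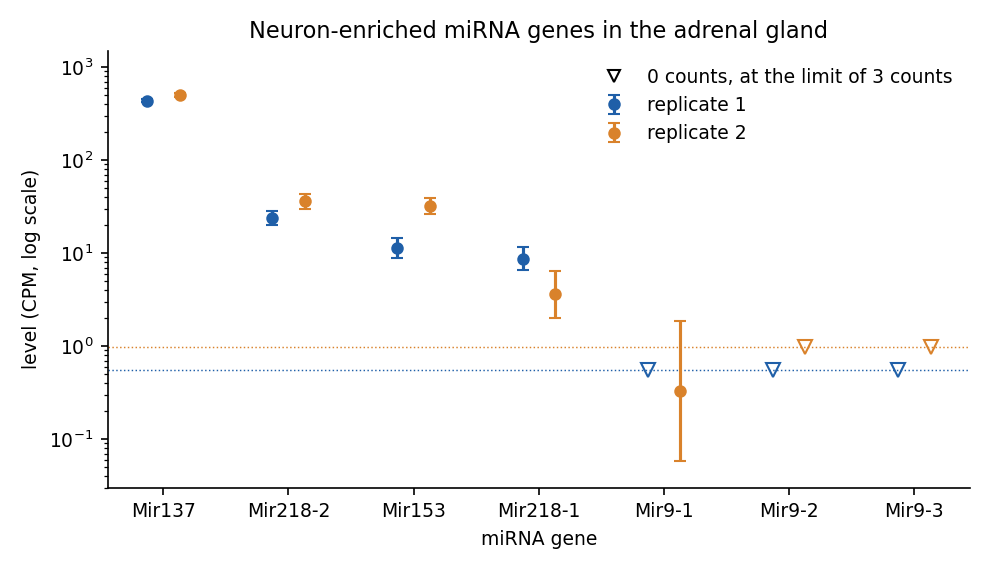
Level of each gene in CPM (log axis) in replicate 1 and replicate 2, with 95% Wilson intervals. Open triangles mark 0 counts and sit at the 3-count limit of the library (dotted lines), which is 0.556 CPM in replicate 1 and 0.990 CPM in replicate 2. Mir137 lies at 435 and 503 CPM, and the other genes reach at most 36.0 CPM.

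The order of mean levels was Mir137, Mir218-2, Mir153, Mir218-1, Mir9-1 and, at 0, Mir9-2 and Mir9-3. Among the 21 pairs, 6 had counts in both libraries for both genes, and 5 of these differed by more than 2.26-fold in geometric mean with the same order in both libraries. That limit follows from the pooled coefficient of variation between the libraries, 41.6%. Mir137 exceeded Mir218-2, the next gene, by 15.9-fold. Mir218-2 and Mir153, adjacent in the order, differed by 1.53-fold and could not be ranked. Mir153 exceeded Mir218-1 by 3.41-fold, but the ratio was 1.32 in replicate 1 and 8.82 in replicate 2. With the limit for replicate 1 alone, 3 of the 6 pairs differed, those of Mir137. This is an order of read counts, and amounts of miRNA were not measured.

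The libraries were compared gene by gene with an exact two-sided binomial test at TMM library sizes, with Benjamini-Hochberg adjustment over the 434 genes with at least 10 counts in all. The test sets 1 library against the other and allows for counting error only. Of these genes 58.5% were called, 30.2% higher in replicate 1 and 28.3% higher in replicate 2. Of the 7 members 4 were tested, and 3 were called, all higher in replicate 2. A call of this kind was thus met in most genes tested, and the members' count is to be read against that share.

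Mir153 differed most among the members. Its log2 ratio of replicate 1 over replicate 2 was -1.77 (exact 95% interval -2.26 to -1.31), or 3.41-fold higher in replicate 2, with an adjusted p of 4.89e-14 in the exact binomial test. Mir218-2 had a log2 ratio of -0.88 (-1.26 to -0.50), 1.84-fold higher in replicate 2 (exact binomial test, adjusted p = 9.19e-06). Mir137 had a log2 ratio of -0.51 (-0.60 to -0.42), 1.42-fold higher in replicate 2 (exact binomial test, adjusted p = 1.54e-25). Mir218-1 ran the other way at 0.94 (-0.01 to 2.06) and did not pass (exact binomial test, adjusted p = 0.0763).

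The scaling and the error used bear on these calls. Scaling by total counts moved every ratio by 0.30 towards replicate 1, kept the direction of all 4, and brought Mir218-1 past the threshold (exact binomial test, adjusted p = 0.0109). Of all 434 genes, 189 were then called higher in replicate 1 and 83 higher in replicate 2. When the spread between the libraries was added to counting error (edgeR's exact test with the common dispersion), 0 of the 4 members and 0% of the 434 genes were called, while 24 genes had an unadjusted p under 0.05. That dispersion was estimated from the difference between these same libraries, so few calls could be made by construction, and the count of 0 says nothing about any one gene's ratio. The ratio of Mir137 to Mir153 within a library, which needs no scaling, was 37.9 in replicate 1 and 15.7 in replicate 2.

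Markers of other cell types differed between the libraries as well. Mir143 and Mir145a, both known from smooth muscle, were 2.30-fold and 5.18-fold higher in replicate 2, the direction of Mir153, Mir218-2 and Mir137. Mir126a of endothelium was 1.56-fold higher in replicate 1. Hairpin GC content moved with the ratio across 284 genes with at least 100 counts (Spearman's rho 0.348 across genes, which are not independent replicates), and it was 42.0% for Mir153, 45.2% for Mir137, 45.5% for Mir218-1 and 54.5% for Mir218-2. With the GC trend removed, a setting chosen after seeing the data, the log2 ratio (replicate 1 over replicate 2) was -1.56 for Mir153, -0.39 for Mir137, -1.03 for Mir218-2 and 1.05 for Mir218-1. Mir218-1 then passed the threshold (exact binomial test, adjusted p = 0.0429). The part of the cell type markers in the members' ratios was not tested. In whole glands, fewer cells of a type and less RNA per cell cannot be told apart.

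**Figure D3:**
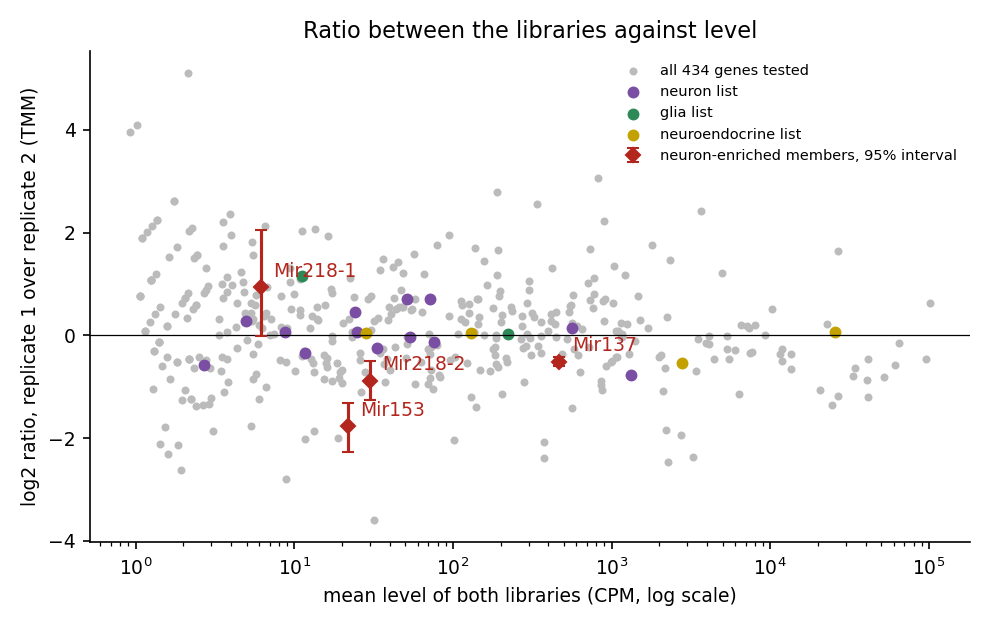
Log2 ratio of replicate 1 over replicate 2 with TMM scaling against the mean CPM of both libraries (log axis) for the 434 genes tested. Mir153, Mir218-2 and Mir137 lie below 0 at -1.77, -0.88 and -0.51, and Mir218-1 lies at 0.94 with an interval that reaches 0; error bars are exact 95% binomial intervals.

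Other miRNAs of neurons, glia and neuroendocrine cells gave the setting for these levels. A list of 19 neuron-linked genes held 2249 ± 91.0 CPM in sum (SD, n = 2), with 12 genes at 10 counts or more in both libraries. Mir708 and Mir132, with means of 1325 and 560 CPM, supplied most of that sum. The list was set by name and the cells that gave these reads were not measured, so the sum is not a level of neurons in the gland. The 7 members summed to 527 ± 67.3 CPM. The glial list of 3 genes, among them Mir219a-1 and Mir338, held 233 ± 44.0 CPM, and the neuroendocrine list of 4 genes, Mir375, Mir7-1, Mir7-2 and Mir7b, held 28532 ± 4435 CPM.

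Among the 26 genes made up of the members and the neuron list, Mir137 was the third by mean level. Above it stood Mir708 at 1325 ± 302 CPM and Mir132, induced by activity in neurons, at 560 ± 122 CPM. In replicate 2 Mir137 (503 CPM) was above Mir132 (474 CPM) and in replicate 1 below it (435 and 647 CPM), so these 2 could not be ranked. Below them by mean level came Mir138-1 at 76.4 ± 6.74 CPM, Mir326 at 71.5 ± 34.4 CPM and Mir128-1 at 53.4 ± 6.96 CPM. Mir326 was above Mir138-1 in replicate 1 (95.8 and 81.1 CPM). In replicate 2 Mir326 (47.2 CPM) was below Mir138-1 (71.6 CPM) and Mir128-1 (48.5 CPM), so its place among them was not settled. By mean level Mir218-2 was at rank 9 of the 26, Mir153 at rank 12 and Mir218-1 at rank 15. These are ranks of means, and near neighbours changed places between the libraries. Mir218-2 was below Mir212 in replicate 1 (24.1 and 33.9 CPM) and above it in replicate 2 (36.0 and 32.7 CPM). Mir153 was below Mir383 in replicate 1 (11.5 and 30.4 CPM) and above it in replicate 2 (32.0 and 17.8 CPM). Mir138-1, Mir128-1, Mir218-2 and Mir218-1 each have an arm found at several loci, unlike Mir137, Mir153 and Mir132. Reads that map to several places were not counted, so these ranks order countable reads and not amounts of miRNA. Mir375, an islet and endocrine miRNA, had 25584 ± 4721 CPM, and Mir7b, a neuroendocrine one, had 2790 ± 312 CPM.

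The 3 genes of miR-124, the most abundant miRNA of neurons, had 0 counts in both libraries. Each shares at least 20 bases of hairpin with the others, as the miR-9 genes do. Copies of their mature arms were not compared, so whether the limit of the miR-9 genes holds for them is not known. Their counts of 0 are therefore not read as absence of miR-124. Of the 33 genes in the members and the 3 lists, 13 share no stretch of 20 bases with another miRNA locus, and 11 of those reached 10 counts in both libraries. Of the 20 that do share one, 11 did. The 2 unshared genes that did not reach it were Mir873a and Mir551b. Over all loci, where 339 of 2202 genes reached 10 counts in both libraries, this split was not made. Whether sharing bears on the counts of the listed genes was not tested.

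**Figure D4:**
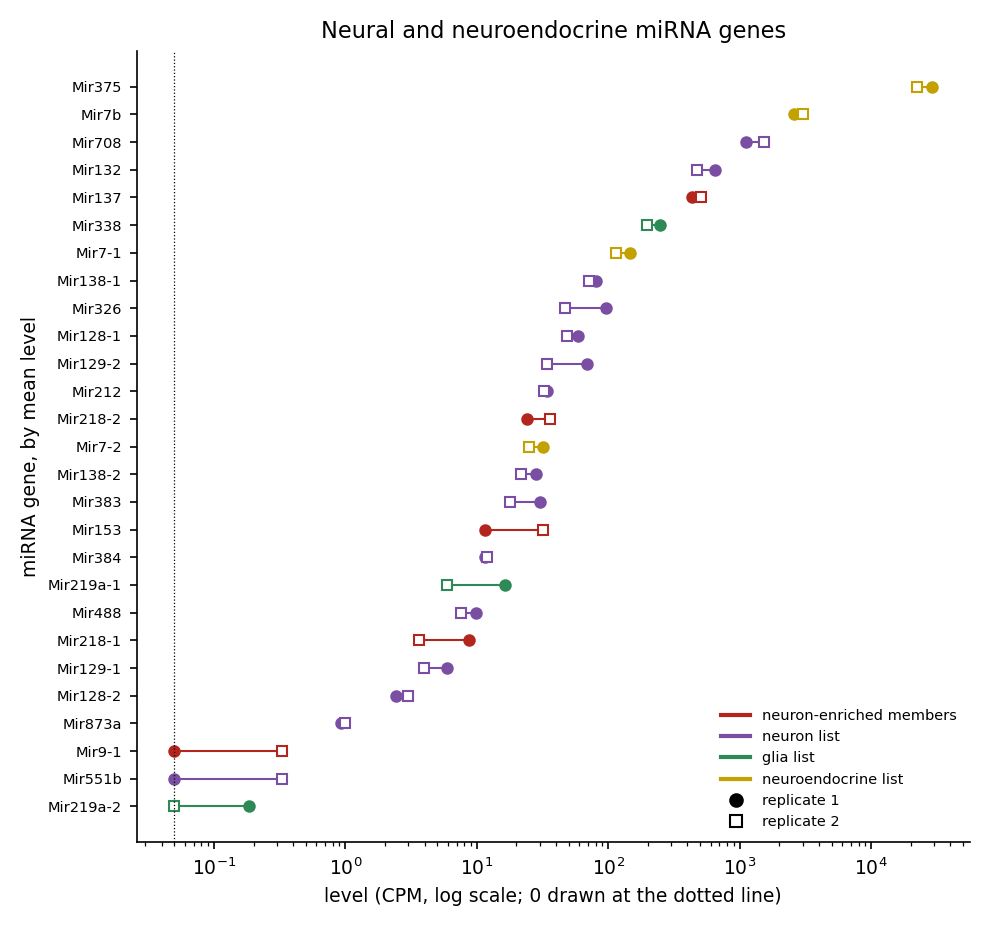
Level in CPM (log axis) of the members and the listed neural and neuroendocrine genes with at least 1 count, highest at the top, with filled circles for replicate 1 and open squares for replicate 2. Mir137 is the fifth gene from the top, below Mir375, Mir7b, Mir708 and Mir132, and Mir218-2, Mir153 and Mir218-1 lie between Mir212 and Mir129-1.

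Between the libraries, listed genes were called in both directions. Of the neuron list 13 genes were tested. Of them 3 were called higher in replicate 1 (Mir326, Mir129-2 and Mir132, 1.64-fold, 1.63-fold and 1.11-fold) and 1 higher in replicate 2 (Mir708, 1.71-fold). For all 434 genes the shares called were 30.2% in the direction of replicate 1 and 28.3% in that of replicate 2. The median log2 ratio (replicate 1 over replicate 2) in the neuron list came to 0.07, against 0.08 over all genes tested. With total counts these medians were 0.37 and 0.37, and with DESeq2 size factors -0.0044 and 0.0023. Of the 4 neuroendocrine genes tested, Mir7b was called higher in replicate 2 (1.44-fold) and Mir375 higher in replicate 1 (1.05-fold), and of the 2 glial genes tested, Mir219a-1 was called higher in replicate 1 (2.23-fold). Scaled by DESeq2 size factors, Mir132 and Mir375 did not pass (adjusted p = 0.150 and 0.661 in the exact binomial test). With total counts Mir383, Mir338 and Mir7-1 were also called, higher in replicate 1.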

How the data were processed

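MicroRNA-seq libraries of adrenal gland from 2 replicates of 1 group were used. The tables the authors deposited give raw read counts for each miRNA gene (both strands together, sense, antisense) and summary entries for reads in no gene. Their column headers are absent, and the columns were read from totals and from genes without an opposite partner. Per the labels and deposited notes the assembly was mm10 with GENCODE M21; the aligner, counter and trimming are stated in no source used here. Reads mapped to several places (28.5% and 30.6%), unmapped reads (26.0% and 22.3%) and reads outside miRNA genes (6.88% and 6.86%) stayed out of library sizes and tests.

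All 2202 identifiers matched GENCODE M21. The sense counts were used as CPM and, for ratios, with TMM sizes (edgeR 4.0.16, R 4.3.3), a prior of 0.5 counts and a minimum of 10 counts over both libraries. The exact binomial test (scipy 1.17.1) was adjusted by Benjamini-Hochberg (statsmodels 0.14.6) at a threshold of 0.05. It was tried on simulated counts with counting error only, so that trial does not cover the spread between libraries. DESeq2 1.42.0 gave alternative size factors. With 1 group there was no contrast for a quasi-likelihood test. The spread between libraries was pooled over genes as the common dispersion of edgeR, fitted with an intercept. Sequences are from RefSeq (GRCm38.p6), and shared stretches were searched in annotated miRNA hairpins, not in the genome.

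The members, the lists and the tests were chosen with earlier results of these data known. Genes named were the members, the 2 genes nearest to each member with at least 100 counts by distance in log2 CPM, overlapping genes, and listed genes with at least 10 counts in both libraries or of miR-124. The cell type markers Mir126a, Mir143 and Mir145a were listed with them. Mir551b, Mir873a, Mir3065 and Mir126b were named after their values were seen.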

Additional observations from a re-analysis of the deposited data

Results flagged for a closer look

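Antisense counts were outside the levels and tests given above, and all 7 members had 0 of them in both libraries. Among the listed genes, 3 had antisense counts above the 3 that a count of 0 allows in both libraries. Mir708 had 8 in replicate 1 and 10 in replicate 2, or 0.133% and 0.214% of its reads on both strands, and no annotated miRNA gene lies opposite it. Mir338 had 58 and 35, and Mir126a had 29 and 14. These equal the sense counts of the genes on the other strand, Mir3065 (58 and 35) and Mir126b (29 and 14), so they are reads of those genes counted a second time.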

How the results depend on the processing

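The number of members with at least 10 counts in both libraries stayed at 4 with minimums of 1 or 3 counts and with counts taken without strand. The 4 members' log2 ratios kept their sign under every alternative run for them. They ran from -1.84 to -1.47 for Mir153, from -1.03 to -0.58 for Mir218-2, from -0.58 to -0.21 for Mir137 and from 0.87 to 1.24 for Mir218-1. With the common dispersion added, 0 members and 0 genes were called, against 3 and 254 with counting error alone; 24 genes then had an unadjusted p under 0.05. This dispersion comes from the same libraries that are compared, which by construction leaves few calls. Under the other alternatives 3 or 4 members and 230 to 272 genes were called. Mir218-1 was the fourth, with total counts and, in a setting chosen after seeing the data, with the GC trend removed (exact binomial test, adjusted p = 0.0429). The number tested changed with the count minimum. At a minimum of 100 counts 230 of 284 genes and 3 of 3 members tested were called. With no count minimum 248 of 769 genes and 3 of 5 members tested were called. With total counts 189 of the 434 genes tested were called higher in replicate 1 and 83 higher in replicate 2, against 131 and 123 with TMM. The members' share of 0.0527% became 0.0208% of all reads and 0.0655% of counts without strand, and 0.0479% to 0.0575% with 1 library left out. Without strand the 4 counted members kept the same counts, and the sum they are divided by was smaller. Mir126a, which overlaps Mir126b, fell from 719007 to 11 counts in replicate 1 and from 209931 to 3 in replicate 2. The number of member pairs that differed was 3 to 5 with 1 library left out, and 2 when loci with the same arm were summed, which leaves fewer pairs. Adding each gene's counting error to the limit, also chosen after seeing the data, left 5 pairs. Depth limits Mir218-1 most among the counted members, with 47 and 11 counts. No paired analysis was possible because there was 1 group.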
